A study of Mus musculus with 4 samples.

Results

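The genes described here are 94 keratins, claudins, desmosomal and tight junction proteins and the epithelial cell adhesion molecule Epcam, of 36918 gene names on the array. They were chosen by symbol: every keratin and claudin symbol, the Tjp genes, Dsc1 to Dsc3, the Dsg1 and Dsg2 genes, Pkp1 to Pkp4, Ocln, F11r, Dsp, Jup and Epcam. They are read by 131 probes, and 29 of the genes have several. The cells are mouse pancreatic cancer cells named K5 and K6, of strain C57BL/6, called lines here; the sources used here do not give how K5 and K6 differ or whether either carries an engineered allele. One sample of each line was treated with halofuginone at 100 nM for 24 hours, and 1 sample of each received DMSO as the control. Halofuginone inhibits the prolyl-tRNA synthetase part of the enzyme encoded by Eprs. The series is titled for Nrf2 and gemcitabine in pancreatic cancer cells, and none of the 4 samples is labelled with gemcitabine.

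Keratins are the intermediate filaments of epithelial cells: a type I and a type II keratin pair to form the filament, and the pair in use differs between simple, stratified and hair-forming epithelia. Claudins and occludin are membrane proteins of the tight junction, which seals the space between neighbouring cells, and the Tjp proteins (ZO proteins) attach them to the cytoskeleton. Desmosomes hold cells together through the desmocollin and desmoglein cadherins, which plakoglobin (Jup), the plakophilins and desmoplakin link to the keratin filaments. Pancreatic duct cells are a simple epithelium that carries Krt7, Krt8, Krt18 and Krt19.

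Levels below are on a log2 scale on which each array's 75th percentile of processed signal is 0; different probes are not comparable in level. A gene was tested when its brightest probe was well above background, by the flag in the scanner files, on at least 2 arrays. Of the 94 genes, 53 were tested, 41 of them well above background on all 4 arrays, 11 were above background on 1 array and 30 on none. Over all gene names, 51.7% were tested, 43.1% were above background on all 4 arrays and 39.7% on none. The tested genes were 7 of 7 simple epithelial keratins, 10 of 20 basal, stratified and wound keratins, 8 of 25 hair and root sheath keratins, 13 of 23 claudins, 5 of 5 other tight junction genes, 3 of 7 desmosomal cadherins, 6 of 6 desmosomal plaque genes and Epcam. Per array, 57 (K5) and 56 (K6) of the 94 were above background after halofuginone, against 49 and 44 in control. Over all 36918 gene names the numbers also were higher after halofuginone, 19357 (K5) and 19844 (K6), against 17533 and 17789 in control. The lowest signal counted as well above background was itself lower on the halofuginone arrays, at -4.92 and -5.01, against -4.17 and -4.25 on the control arrays. The label of a pancreatic cancer cell was set against marker lists: 10 of 10 duct markers were above background on all 4 arrays, as were 2 of 7 acinar (Cela1 and Cel) and 2 of 10 fibroblast markers (Acta2 and Fbln1). Acinar Cpa1, Ptf1a and Prss2, fibroblast Col1a1 and Lum, islet Ins1 and Ins2 and endothelial Cdh5 were above background on none. Above background on some but not all arrays were 4 of 10 fibroblast, 2 of 5 islet and 3 of 5 endothelial markers. Among these, islet Gcg and endothelial Kdr were so on 3 arrays, and fibroblast Col1a2, Col3a1 and Pdgfra on 2. The immune list had 5 of 7 markers above background on all 4 arrays (Ptprc, Cd3e, Itgam, Cd68 and Cd14), and its summed linear level was 13.4 and 9.80 after halofuginone, against 30.2 and 27.3 in control; without Cd14 it was 10.5 and 8.81, against 11.08 and 11.01. The part of these cells in the results below was not tested.

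**Figure D1:**
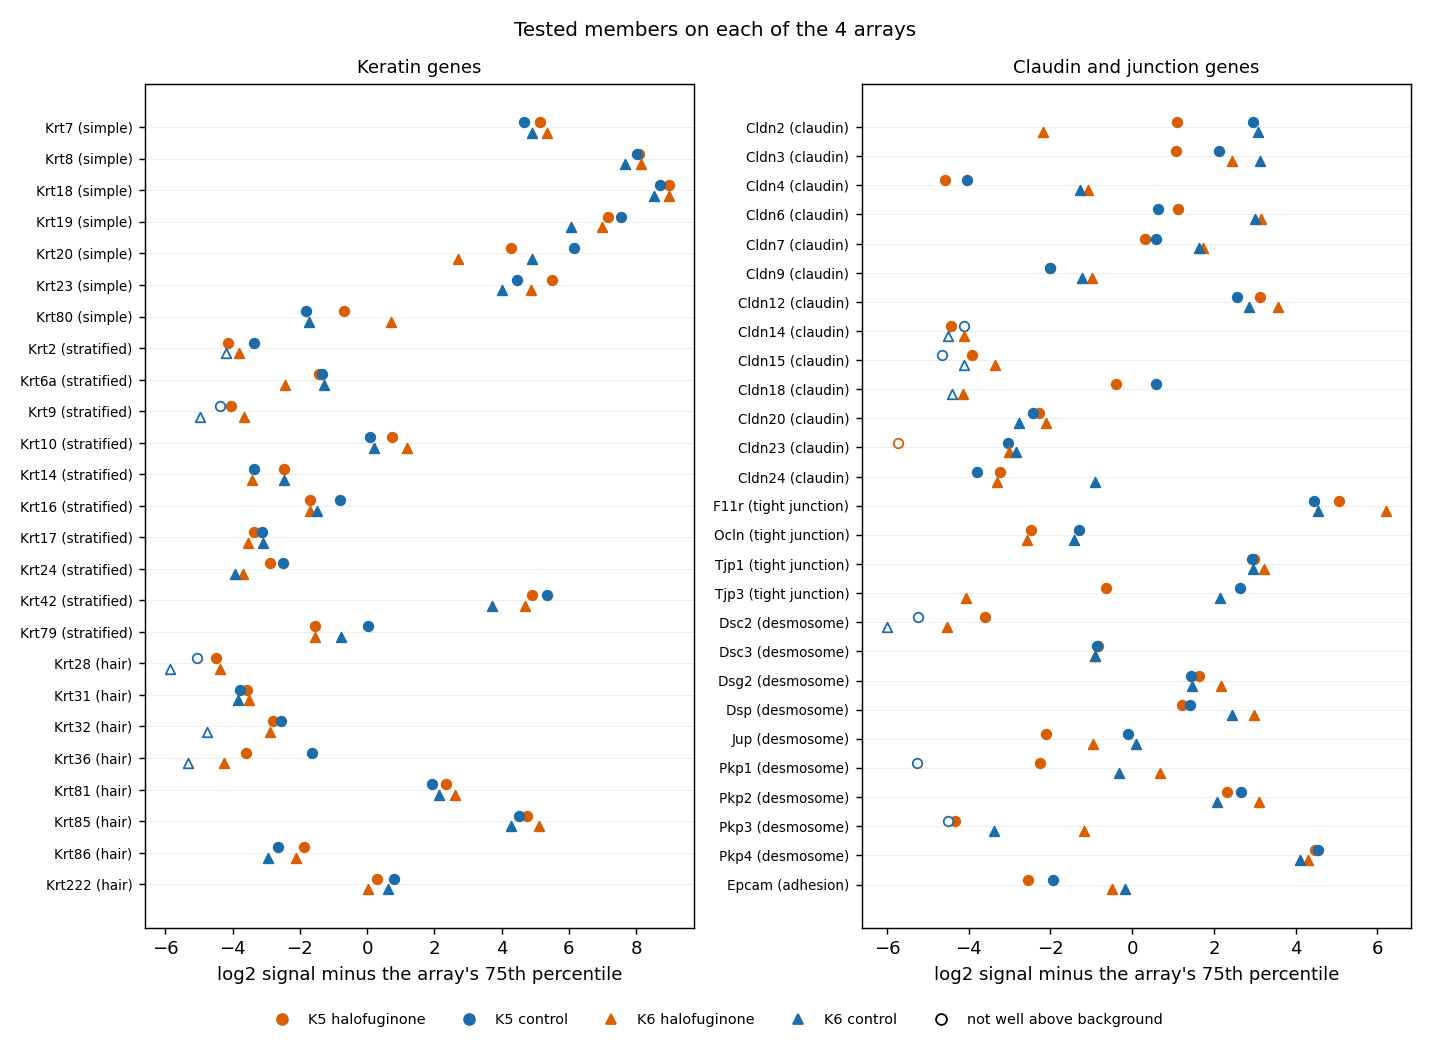
Level of 52 tested genes on the 4 arrays, as log2 signal minus the array's 75th percentile (horizontal axis), with keratins on the left and claudins, junction genes and Epcam on the right. Orange is halofuginone and blue is control, circles are K5 and triangles K6, each point is 1 array, and open points were not well above background. The orange points of Krt20, Cldn2, Ocln, Jup and Tjp3 lie left of both blue points.

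After halofuginone, the simple keratin Krt20 and the tight junction scaffold Tjp3 (ZO-3) fell in both lines and the desmocollin Dsc2 rose in the fit over both lines, its control arrays being below background. The main filament pair of simple epithelia, Krt8 and Krt18, were within 0.47 of control in each line by their brightest probes and did not pass the test. In all, 3 of the 53 genes passed the threshold (limma, adjusted p below 0.05), where 8.96% of all 19092 tested genes did, 3.88% higher and 5.08% lower. By unadjusted p below 0.05 (limma) the number was 17 of the 53, against 6506 of all 19092 tested genes. Without the line as a replicate block 0 passed the adjusted threshold. The median change of the 53 genes was 0.16, and that of all tested genes was 0.01. Both halofuginone arrays lay above both control arrays for 19 of the 53 genes and below for 11, against 30.0% and 28.6% of all tested genes. Of the 53 genes, 5 were above background only on halofuginone arrays: Cldn14, Cldn15, Dsc2, Krt28 and Krt9. They entered the test through those arrays, and all but Cldn14 are among the 19. The like share of all tested genes was not computed. Over all gene names, more were above background on the halofuginone arrays than on the control arrays. Each line has 1 array per condition, so a value within a line has no test, and no label states separate cultures. The p-values set a change only against how far it differed between the lines, a spread that limma draws towards that of all tested genes. They cover only these 4 samples and do not measure the spread between separate cultures.

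Of the 7 simple epithelial keratins, Krt20 fell and 6 did not pass the test; their median change was 0.35. Krt20, a type I keratin of gastric, intestinal and urothelial lining cells, read 4.28 in K5 and 2.70 in K6 after halofuginone, against 6.15 and 4.90 in control. Both treated values lay below both control values. The change was -2.03 (SE 0.27, limma adjusted p = 0.0423), or 4.10-fold lower, with -1.87 in K5 and -2.20 in K6. Its probe lies at chr11:99289776-99289835 (mm9). In such bulk samples, fewer cells with a transcript and less transcript per cell cannot be told apart. Leaving out an array moved the change between -2.82 and -1.25. These fits had no line term, so the difference between the lines enters their changes. Without that term no gene of the array passed even with all 4 arrays, so they do not test dependence on 1 array. The call held under 7 of 15 alternative settings. With all 4 arrays the adjusted p lay between 0.00589 and 0.207 (limma).

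The remaining simple keratins differed from control by smaller amounts or with wider error. Krt8, the type II partner of Krt18, read 8.09 and 8.16 after halofuginone, against 8.02 and 7.68 in control (change 0.27, SE 0.27, limma adjusted p = 0.528). Krt18 read 8.96 and 8.97, against 8.70 and 8.54 in control (change 0.35, adjusted p = 0.403). For both genes the treated arrays lay just above the control arrays, and the other Krt8 probe gave 0.17 in K5 and 0.70 in K6. Krt7, a type II keratin of ducts, read 5.15 and 5.34, against 4.68 and 4.89 in control (change 0.46, adjusted p = 0.278). Krt19, the type I keratin of pancreatic ducts, read 7.17 and 6.99, against 7.56 and 6.06 in control. Its 2 lines differed in sign, -0.38 in K5 and 0.93 in K6, and the treated values lay between the control values. Krt23, a type I keratin named here after its values were seen, read 5.51 and 4.89, against 4.47 and 4.01 (change 0.96, adjusted p = 0.0930). Krt80, a type II keratin, read -0.70 and 0.70, against -1.81 and -1.72 in control, a change of 1.77 (SE 0.42) with an adjusted p of 0.0763. Its treated values lay above both control values, by 1.11 in K5 and 2.42 in K6. Its other probe above background on all 4 arrays gave 0.24 and 1.49, less than 2-fold in K5.

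None of the 10 tested basal, stratified and wound keratins passed the test, and their median change was -0.13. Krt14, of basal layers, read -2.47 and -3.44 after halofuginone, against -3.38 and -2.48 in control, and Krt17, of wounded and stressed epidermis, read -3.37 and -3.53, against -3.12 and -3.10. The groups of Krt14 overlapped, and those of Krt17 did not, with a change of -0.34 (limma adjusted p = 0.410). Krt5, the basal partner of Krt14, was above background on 1 array (K6 after halofuginone) and was not tested. Of 6 squamous markers, a list that includes Krt5, Trp63, Lor and Sprr1a were above background on all 4 arrays. The summed linear level of that list was 13.8 and 23.2 after halofuginone, against 93.3 and 67.3 in control, and without Sprr1a it was 5.80 and 11.8, against 3.87 and 4.04.

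None of the 8 tested hair and root sheath keratins passed the test, and their median change was 0.49. Krt36, known from nail and tongue epithelium, read -3.60 and -4.25 after halofuginone, against -1.64 and -5.32 in control, the K6 control being below background. Its difference was -1.96 in K5 and 1.07 in K6 by the signal as read, where 0.864% of all tested genes were at least 2-fold apart in opposite directions. The treated K6 value does not exceed the lowest signal well above background on the K6 control array, so no rise is measured in K6; with dim arrays raised to that signal, 0 of the 53 genes and 0.45% of all tested genes moved at least 2-fold in opposite directions. Krt81 and Krt85 were above background on all 4 arrays, whereas Krt83 was above background on none. Krt81 read 2.36 and 2.62, against 1.92 and 2.13 in control, and Krt85 read 4.76 and 5.10, against 4.53 and 4.29 (adjusted p = 0.281 and 0.287). The probes of Krt81 and Krt83 read closely related sequences of type II hair keratins, and are shown because their similarity bears on which gene a signal comes from. In the sequences the capitals mark the 51 of 60 positions that both share.
Krt81: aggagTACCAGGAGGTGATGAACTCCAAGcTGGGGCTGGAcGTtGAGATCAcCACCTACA
Krt83: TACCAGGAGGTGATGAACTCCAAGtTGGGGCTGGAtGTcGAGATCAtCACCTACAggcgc
The Krt81 probe lies at chr15:101290583-101290642 and the Krt83 probe at chr15:101263556-101263615 (mm9, minus strand). The accession of the Krt83 probe carries the symbol Krt87 in the RefSeq table. The Krt81 probe is as similar to that of another hair keratin that was above background on all 4 arrays, and how far transcripts of these genes bind each other's probes was not tested.

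Krt42 was singled out after its values were seen. Its brighter probe read 4.91 and 4.69 after halofuginone, against 5.34 and 3.71 in control, while its other probe was above background on no array. Once each gene was centred on its own mean, this Krt42 probe differed from Krt19 by at most 0.06 on any of the 4 arrays. The next closest of the 40 genes compared with Krt19 was Krt24, with a largest gap of 0.48. Among the keratins, only probes of Krt81, Krt83 and Krt85 were listed as closely similar in sequence. That list compared probes with probes and not with transcripts, so it cannot show whether the Krt42 probe binds Krt19 transcript. What the parallel values of Krt42 and Krt19 come from was not tested.

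None of the 13 tested claudins passed the test after halofuginone, and their median change was -0.09. Cldn2, which forms cation-selective pores in leaky epithelia, read 1.1 and -2.18 after halofuginone, against 2.97 and 3.08 in control. Both treated values lay below both control values, with a difference of -1.86 in K5 and -5.26 in K6. This gave a change of -3.56 (SE 0.89) with an adjusted p of 0.0825 (limma). Its other probe, dimmer, gave -1.72 in K5, and in K6 its treated array was below background. Cldn3, a sealing claudin, read 1.08 and 2.45, against 2.13 and 3.14 in control (change -0.87, adjusted p = 0.118). The treated and control values of Cldn3 overlapped, since K6 exceeded K5 in both conditions. Cldn7, a claudin of lateral membranes, read 0.31 and 1.74, against 0.59 and 1.64 (change -0.09, adjusted p = 0.843). Cldn1 was above background on 1 array (K5 after halofuginone) and was not tested.

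Of the 5 other tight junction genes, Tjp3 fell and 4 did not pass the test; the changes ran from -4.73 to 1.14. Tjp3 (ZO-3) read -0.63 in K5 and -4.06 in K6 after halofuginone, against 2.64 and 2.14 in control. Both treated values lay far below both control values, and the K6 value lay lower than that of K5. The change was -4.73 (SE 0.78, limma adjusted p = 0.0482), or 26.6-fold lower, with -3.27 in K5 and -6.20 in K6. The other Tjp3 probe, 583 bases away, read -2.40 and -5.86, against 0.86 and 0.37 in control, with its K6 value after halofuginone below background. The probes lie at chr10:80735967-80736026 and chr10:80736550-80736609 (mm9). Leaving out an array, again without the line term, moved the change between -6.45 and -3.02. The call held under 7 of 15 alternative settings, with adjusted p between 0.00584 and 0.136 on all 4 arrays (limma).

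Its relative Tjp1 (ZO-1) read 2.97 and 3.22 after halofuginone, against 2.92 and 2.95 in control (change 0.16, limma adjusted p = 0.695). Ocln, the membrane protein occludin, read -2.48 and -2.58, against -1.31 and -1.42 (change -1.16, SE 0.26, adjusted p = 0.0685), with no overlap and alike in K5 (-1.17) and K6 (-1.16). F11r, the junctional adhesion molecule JAM-A, read 5.07 and 6.20, against 4.44 and 4.54 (change 1.14, SE 0.36, adjusted p = 0.122). Its treated values lay above both control values.

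Among the 3 tested desmosomal cadherins, Dsc2 rose and 2 did not pass the test. Dsc2, the desmocollin found in most desmosomes, read -3.60 and -4.52 after halofuginone, against -5.24 and -6.00 in control, where it was not well above background on either array. The fitted change was 1.56 (SE 0.26, limma adjusted p = 0.0484). Against the lowest signal that counts as above background on each control array, the treated level was at least 1.11-fold higher as a mean over both lines. In K6 by itself the treated value, -4.52, lay below the lowest such signal of the K6 control, -4.25, so no rise is measured in that line. The call held under 2 of 14 alternative settings, with adjusted p between 0.0393 and 0.201 on all 4 arrays (limma). Normexp background correction reduced the change to 0.47 (adjusted p = 0.201). Dsg2, the desmoglein of simple epithelia, read 1.65 and 2.17, against 1.45 and 1.46 (change 0.45, adjusted p = 0.333). Dsc3 read -0.84 and -0.91, against -0.86 and -0.90.

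None of the 6 desmosomal plaque genes passed the test, and their median change was 0.24. Jup (plakoglobin, also part of adherens junctions) read -2.10 and -0.96 after halofuginone, against -0.11 and 0.10 in control (change -1.53, SE 0.35, limma adjusted p = 0.0721). Both treated values lay below both control values. Pkp1, a plakophilin of stratified epithelia, read -2.26 and 0.68, against -5.27 and -0.31, with the K5 control below background (change 2.0, adjusted p = 0.100). Pkp3 read -4.32 and -1.17, against -4.51 (below background) and -3.37. The groups of Pkp1 and Pkp3 overlapped because the lines differed. Pkp2 read 2.33 and 3.09, against 2.68 and 2.09, and Dsp (desmoplakin) read 1.21 and 2.98, against 1.43 and 2.45. Pkp4 read 4.48 and 4.31, against 4.55 and 4.10; 2 of its other probes differed by at most 0.28 in either line, and a dim probe by 1.26 and 2.90. Epcam read -2.55 and -0.49, against -1.94 and -0.16 (change -0.47, adjusted p = 0.291).

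**Figure D2:**
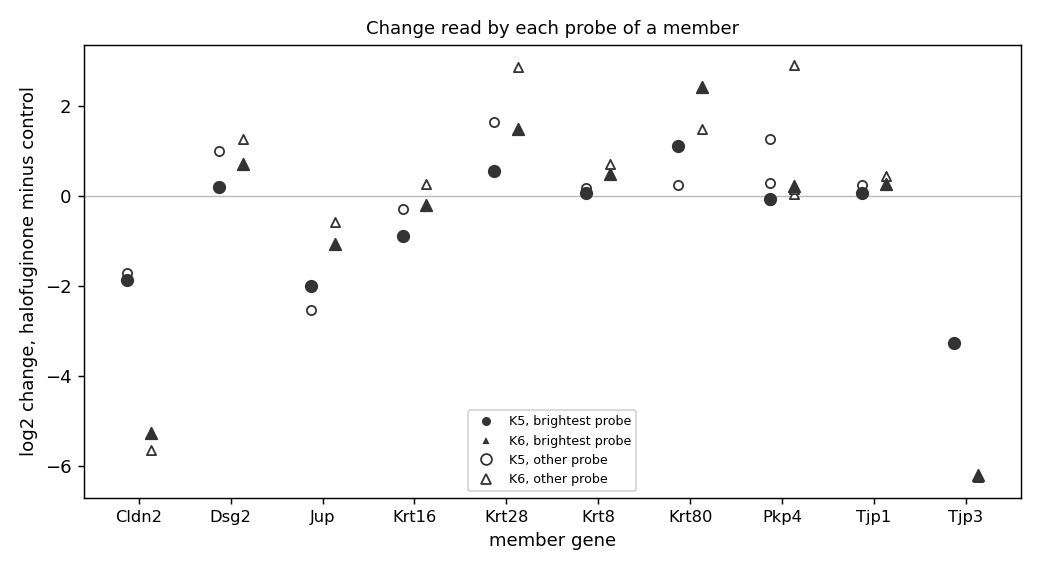
Log2 change, halofuginone minus control, read by each probe of 10 genes with several probes above background on at least 2 arrays (22 probes). Circles are K5 and triangles K6, filled points the brightest probe of the gene, and each point is the difference of 2 arrays. The K6 points of the dimmer Tjp3 and Cldn2 probes rest on a treated array below background. Both Tjp3 probes and both Cldn2 probes lie low in each line, Tjp3 at -3.27 and -6.20 by its brightest probe, whose points cover those of its other probe.

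The lines were set side by side gene by gene, since each supplies 1 treated and 1 control array. At least 2-fold lower in both lines were 5 of the 53 genes, Krt20, Cldn2, Jup, Ocln and Tjp3, where 9.62% of all tested genes were. At least 2-fold higher in both by the signal as read were Dsc2 and Krt80, against 8.59% of all tested genes. With each array that was not well above background raised to the lowest signal that is, a setting added after seeing the data, Krt80 alone remained higher (6.92% of all tested genes) and the same 5 genes remained lower (9.52%). In K5 alone the counts by the signal as read were 4 higher and 9 lower (14.1% and 14.9% of all tested genes), and in K6 9 higher and 7 lower (16.4% each). With dim arrays so raised, the counts were 3 and 9 in K5 and 5 and 7 in K6. The shares of all tested genes so raised were not computed within a line, so these counts have no like share beside them. The sign of the change was shared by the lines for 37 of the 53 genes, or 69.8%, against 76.7% of all tested genes. Summed linear levels of the duct markers, a list that includes Krt7, Krt19 and Epcam, were 279 in K5 and 190 in K6 after halofuginone, against 638 and 412 in control. Spp1 carried most of that difference in the sums: without it they were 190 and 176, against 236 and 116. Without Krt19 instead, the sums were 135 and 63.3, against 450 and 346. Of the same list, Muc1 and Pdx1 passed the test as lower, with changes of -3.40 and -1.69 (limma adjusted p = 0.0358 and 0.0480). Krt7 and Krt19 alone read higher, with changes of 0.46 and 0.27, and did not pass. The genes left out of such sums were chosen after their values were seen.

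**Figure D3:**
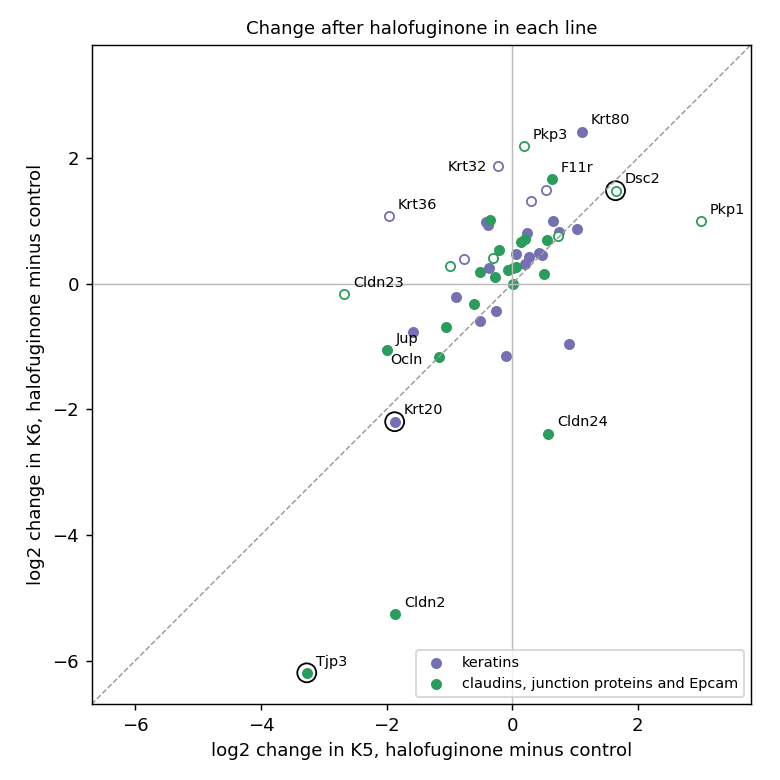
Log2 change after halofuginone in K5 (horizontal axis) and K6 (vertical axis) for 52 tested genes, each the difference of 1 treated and 1 control array. Filled points were above background on all 4 arrays and open points on 2 or 3; black rings mark Krt20, Tjp3 and Dsc2, which passed the test, and the dashed line is equality. Tjp3 and Cldn2 lie lowest, at -6.20 and -5.26 in K6.

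Between K6 and K5, most of the 8 genes that read at least 2-fold higher in K6 in both conditions were claudins or desmosomal plaque genes, and the other was Epcam. None of the 53 genes passed the test for K6 minus K5 (limma, lowest adjusted p 0.0577). Of all tested genes 0.173% did (0.0576% higher and 0.115% lower in K6). Below an unadjusted p of 0.05 were 13 of the 53, against 2967 of all 19092 tested genes. Alternative settings called between 0 and 5 of the 53 genes. Normexp background correction, which gave 5, called 190 higher and 232 lower of all 19092 tested genes. At least 2-fold higher in K6 in both conditions were 8 of the 53 genes, or 15.1%, against 3.14% of all tested genes: Cldn3, Cldn4, Cldn6, Cldn7, Dsp, Epcam, Pkp1 and Pkp3. At least 2-fold lower in both were Cldn18 and Krt20, against 3.47% of all tested genes. With dim arrays raised to the lowest signal well above background, 7 remained higher, without Pkp3, and the same 2 lower (2.49% and 3.0% of all tested genes). In control alone 9 were higher and 7 lower (7.74% and 6.87% of all tested genes), and after halofuginone 13 and 4 (9.52% and 10.5%). The median difference was 0.92 for the claudins, 1.03 for the plaque genes, -0.24 for all 25 tested keratins and -0.03 for all tested genes.

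Cldn4, a sealing claudin, read -1.08 and -4.57 in K6 and K5 after halofuginone, and -1.27 and -4.05 in control. Each K6 value lay above each K5 value, by 3.13 on average (SE 0.31, limma adjusted p = 0.0608). Its K5 values lay close to the lowest signal well above background, which was -4.92 after halofuginone and -4.17 in control. Cldn6, a claudin of embryonic epithelia, read 3.15 in K6 and 1.13 in K5 after halofuginone, and 3.00 and 0.63 in control, a difference of 2.19 (SE 0.27, adjusted p = 0.0806). Cldn18, of stomach and lung epithelium, ran the other way: it read -4.13 in K6 and -0.40 in K5 after halofuginone, and -4.42 and 0.58 in control. That is a difference of -4.37 (SE 0.41, adjusted p = 0.0577), with the K6 control array below background. Pkp1 was higher in K6 by 2.95 after halofuginone and by 4.96 in control (difference 3.95, SE 0.57, adjusted p = 0.100). Its K5 control array was below background, so the difference in control is not measured in full. Epcam was higher in K6 by 2.05 after halofuginone and 1.78 in control (1.92, SE 0.26, adjusted p = 0.0964). Dsp was higher by 1.77 and 1.02, Cldn3 by 1.37 and 1.01, and Cldn7 by 1.43 and 1.06. For Krt20 K6 minus K5 was -1.58 after halofuginone and -1.25 in control. The lines were close in Cldn2 and Tjp3 in control, with K6 minus K5 at 0.11 and -0.50, and apart after halofuginone, at -3.28 and -3.42.

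**Figure D4:**
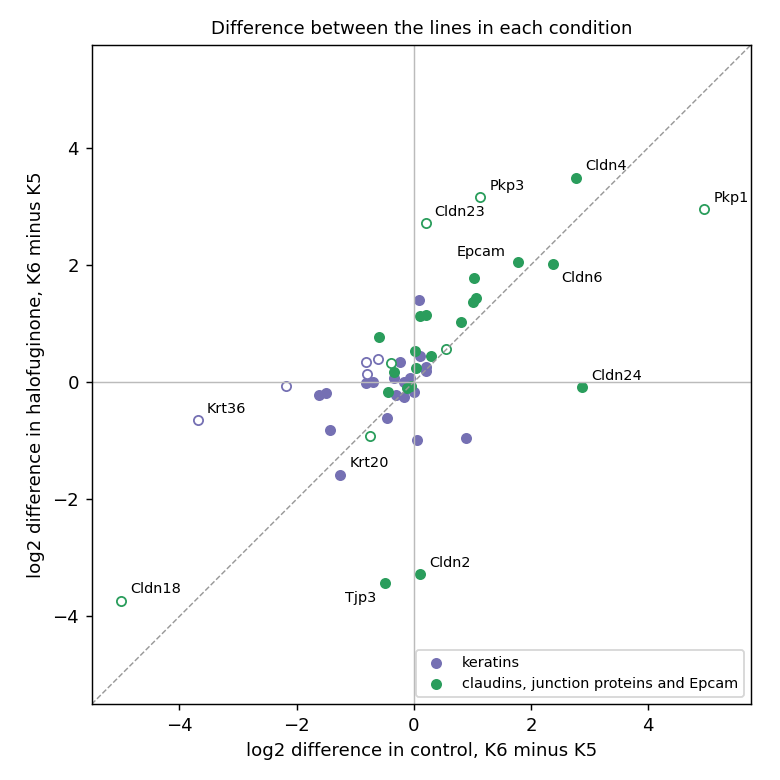
Log2 difference between the lines, K6 minus K5, in control (horizontal axis) and after halofuginone (vertical axis), for 52 tested genes. Each point is the difference of 2 arrays in each direction, filled where all 4 arrays were above background, and the dashed line is equality. Cldn4, Cldn6, Pkp1 and Epcam lie in the upper right, Cldn18 in the lower left, and Cldn2 and Tjp3 near 0 in control but below -3 after halofuginone.

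The other junction genes of the array gave a background for these results. The 53 listed genes were adherens junction, tight junction, polarity, nectin and desmosome-associated genes, with Vim and Trp63 among them. Of these, 51 were tested, 4 rose and 1 fell, against 3.88% and 5.08% of all tested genes, and their median change was -0.07. Amotl1, an angiomotin-family scaffold, read -0.56 and -0.25 after halofuginone, against -2.83 and -2.75 in control (change 2.39, SE 0.26, limma adjusted p = 0.0379). Ybx3, a Y-box protein that binds ZO-1, read 7.03 and 6.91, against 5.32 and 5.27 (change 1.68, adjusted p = 0.0457). Neither gene's treated and control values overlapped. Magi2, a scaffold of the MAGUK family, and Pvrl3 (nectin-3) rose by 2.03 and 1.88 (adjusted p = 0.0485 and 0.0466), with Pvrl3 below background in K6 control. These calls held under 7 of 15 and 6 of 14 alternative settings. The mean over probes gave 0.35 for Magi2 (limma adjusted p = 0.395). Leaving out the K5 halofuginone array gave 0.32 for Pvrl3, in a fit without the line term. That value carries the difference between the lines, which was -2.83 for Pvrl3. Within the lines Pvrl3 changed by 2.16 in K5 and 1.59 in K6. Igsf5, the junctional molecule JAM4, read -0.61 and -1.64, against 1.48 and 1.28 (change -2.51, SE 0.33, adjusted p = 0.0423). Cdh1 (E-cadherin) read 3.85 and 4.09, against 3.93 and 4.15 in control (change -0.07, adjusted p = 0.861). The catenins Ctnna1, Ctnnb1 and Ctnnd1 gave changes of 0.52, -0.55 and -0.59, and Vim, the filament protein of mesenchymal cells, 0.39; these 4 did not pass the test.

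Of the 94 genes, 62 had a promoter in the RefSeq table. Promoter sequence is shown for Tjp3 and Krt20, the members that fell with both groups above background. The windows are the 250 bases before the annotated start in RefSeq (GRCm38.p6), both on the minus strand. The motifs below, 5 in all, were searched on both strands: CACCTG, the E-box that factors such as Snai1, Snai2 and Zeb1 can bind, the AP-1 site TGANTCA, the amino acid response element TGATGNAAT, and the grainyhead-like motifs AACNGGTT and AACCGGTT, of which AACCGGTT is a case of AACNGGTT. Capitals mark CACCTG or its complement CAGGTG. Tjp3 has 2 annotated starts, at chr10:81291582-81291831 and chr10:81291268-81291517, and Krt20 has 1, at chr11:99438154-99438403.
Tjp3, first window: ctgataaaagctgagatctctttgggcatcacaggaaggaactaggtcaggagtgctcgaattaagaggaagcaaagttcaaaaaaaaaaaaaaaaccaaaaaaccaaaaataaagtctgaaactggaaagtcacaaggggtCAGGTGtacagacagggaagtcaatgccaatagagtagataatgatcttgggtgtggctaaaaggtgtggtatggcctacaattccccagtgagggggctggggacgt
Tjp3, second window: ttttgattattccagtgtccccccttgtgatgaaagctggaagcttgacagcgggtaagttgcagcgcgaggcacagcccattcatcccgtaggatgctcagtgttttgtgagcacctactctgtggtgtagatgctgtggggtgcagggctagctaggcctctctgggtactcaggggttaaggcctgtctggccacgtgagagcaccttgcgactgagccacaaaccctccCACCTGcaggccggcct
Krt20: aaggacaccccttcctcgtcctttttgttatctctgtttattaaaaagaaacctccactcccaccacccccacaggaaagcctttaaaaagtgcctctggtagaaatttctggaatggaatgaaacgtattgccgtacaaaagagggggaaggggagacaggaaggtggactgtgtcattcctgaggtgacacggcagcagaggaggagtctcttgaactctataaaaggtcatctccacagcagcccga
The Tjp3 windows hold 1 E-box each, at -108 and -17 from their starts, and the Krt20 window holds none of the motifs. CACCTG occurs in 17.2% of all 32851 promoter windows, so a match is common. Of the 35 tested members with a window it occurs in 15, or 42.9%, against 19.0% of the 11046 tested genes with one; the median GC content was 54.0% in those members and 59.2% in those genes. Ocln, Krt8 and Krt18, which did not pass the test, hold it too, and Cldn2 and Jup do not. TGANTCA occurs in 3 of the 35 and 6.75% of all windows, and the other motifs in 0 of the 35. These matches describe the letters and no binding was measured.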

How the data were processed

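Total RNA of 4 samples was amplified and labelled with Cy3 for 1-colour Agilent arrays, per the labels' protocols. The deposited scanner intensity used is the processed signal, background-subtracted by Agilent Feature Extraction 10.7.1.1 per the file headers (the submitters' processing notes name 9.5.1.1). The other flags used, per spot, are those the authors deposited for signal well above background and for outliers. The authors' deposited value table, a normalized intensity with a median of 32.97434 in every column, served as an alternative; no source used here says how it was made.

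Control and outlier spots were left out, spots of a probe averaged and each array scaled to its 75th percentile over spots before log2. Each gene was read by its brightest probe, and the 19092 genes whose probe passed the background flag on 2 or more arrays were fitted in R 4.3.3 using lmFit and eBayes of limma 3.58.1 (line and treatment as terms, 1 residual degree of freedom). Benjamini-Hochberg adjustment ran over all of these genes, and 0.05 was the threshold. The numbers 5 and 6 pair the samples, being the names of the cells; K6 minus K5 after halofuginone correlated with K6 minus K5 in control at 0.50 across genes. The number of arrays limits precision, and all 4 lay on 1 slide. On simulated data, 1% of changes of 2 and 90% of changes of 4 (log2) were recovered, with 8 unchanged genes called among 19092. The simulation changed few genes and assumed their spread, whereas 8.96% of the genes passed in the data. Its rates of recovery need not hold for these arrays.

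Genes named in the text were those past the threshold, those at least 2-fold changed in both lines, those at least 4-fold apart between lines in both conditions, and a fixed list of well-known members. The members and lists were chosen with earlier results of these data known. Alternatives were other scalings, background corrections, filters and fits, and leaving out each array. The fits that left out an array had no line term. Some results are not reported here.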

Additional observations from a re-analysis of the deposited data

Results flagged for a closer look

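Krt36 gave a difference of -1.96 after halofuginone in K5 and of 1.07 in K6, so the change in K6 minus the change in K5 was 3.03 on the log2 scale. With 1 array per line and condition, this difference was not tested, and the K6 control array was not well above background. The treated K6 value does not exceed the lowest signal well above background there, so the rise in K6 is not measured.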

How the results depend on the processing

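Of the 53 genes, 3 passed for halofuginone. With quantile normalization or the authors' values the number was 2, without Dsc2, and with median centring or the 75th percentile over probes (that last setting added after seeing the data) 3 passed. The 75th percentile over probes above background on all 4 arrays, the mean over probes and no filter on dim probes gave 0. Normexp background correction and the filter on all 4 arrays gave 10 each, and eBayes with trend gave 8; Krt20 and Tjp3 were among them in all 3 settings and Dsc2 in none. The fit without the replicate block gave 0, and the fits that left out an array had no replicate block either. For K6 minus K5, where 0 passed, quantile normalization, the 75th percentile over probes and the authors' table gave 1 (Cldn18), median centring 2, the filter on all 4 arrays 3, and normexp and trend 5 each; without the replicate block 0 passed. Over all genes, K6 minus K5 called 11 higher and 22 lower. The numbers were 61 and 90 with quantile normalization, 70 and 97 with the 75th percentile over probes, and 61 and 91 with the authors' table. Median centring gave 114 and 182, the filter on all 4 arrays 145 and 160 of 15895 genes, normexp 190 and 232, and trend 137 and 167. Of the other junction genes 5 passed, against 11 with normexp, 10 with the filter on all 4 arrays, 8 with trend and 2 with the mean over probes. The number was 0 with the 75th percentile over detected probes, with no filter or without the block. The members above background numbered 53, 64 on at least 1 array and 41 on all 4. No called change turned its sign. Over all genes, 740 rose and 970 fell after halofuginone, 1858 and 2315 with normexp, 992 and 1499 with median centring, 1910 and 2104 with the filter on all 4 arrays, 2041 and 2163 with trend, 224 and 368 with the mean over probes, and 0 and 0 without the block. With quantile normalization 715 rose and 1044 fell, with the authors' values 697 and 1030, and with the 75th percentile over probes 945 and 1076. Where the settings changed a count, the cause was not tested. With 1 residual degree of freedom, 1% of simulated 4-fold changes were recovered. That simulation changed a smaller share of genes than passed here, so the rate need not hold for these data.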

Other observations

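Squamous markers outside the chosen genes moved in different directions after halofuginone. Sprr1a, a cornified envelope precursor, read 3.00 and 3.51 after halofuginone, against 6.48 and 5.98 in control (change -2.98, SE 0.36, limma adjusted p = 0.0395). Lor (loricrin), the main envelope protein, read 1.01 and 2.85, against -1.06 and -0.79 (change 2.85, SE 0.47, adjusted p = 0.0482). Ivl (involucrin) fell, with a change of -3.35 (adjusted p = 0.0480) and 1 treated array below background. The desmoglein Dsg3 read -3.82 and -1.38, against -6.32 and -6.51 in control, where it was not above background (adjusted p = 0.0545). Trp63, a transcription factor of basal epithelia, gave a change of 0.32 (adjusted p = 0.434).

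Among the 11 members above background on 1 array, Dsg1c read -0.57 in K5 after halofuginone and Cldn22 read -1.80 in the K5 control. The other Dsg1c probe read -6.87 in K5 after halofuginone and was above background on no array.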
